A study of Mus musculus with 2 samples.

Results

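The 10 genes described here encode insulin (Ins1 and Ins2), islet amyloid polypeptide (Iapp), the granins Chga, Chgb and Scg2, and the proteins that turn prohormones into hormones (Scg5, Pcsk1, Pcsk2 and Cpe). They were chosen by name, and a probe was counted where its RefSeq accession maps to one of them. This gave 13 probes of the 10 genes, out of 39417 probes on the array and 20653 genes with a named probe. RNA came from MIN6 cells, a glucose-responsive insulinoma line of a transgenic C57Bl/6 mouse, used at passages 15 to 20. Cells of the FTO sample had received the lentivirus PLVX-IRES-ZsGreen-mFTO, which carries mouse FTO and a green fluorescent marker. Cells of the control sample had received the empty vector PLVX-IRES-ZsGreen. Both samples had therefore received virus and marker. Both were cultured for about 18 h before a transduction of 48 h with 8 μg/ml polybrene. No sort for fluorescent cells is described, so either sample may hold untransduced cells. There was 1 one-color Agilent array per condition, so the differences below could not be compared with a spread between cultures, and no test was run.

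Pancreatic β cells store insulin in dense-core granules. Proinsulin enters the forming granule together with granins, acidic proteins that aggregate at low pH, and is cut behind pairs of basic residues by the convertases PC1/3 (Pcsk1) and PC2 (Pcsk2). Carboxypeptidase E (Cpe) then trims the exposed basic residues, and 7B2 (Scg5) keeps PC2 inactive until it reaches the granule. Iapp is cut by the same enzymes and secreted with insulin. The study had asked whether raised FTO alters insulin secretion by these cells, and the arrays hold a reading of the whole pathway.

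The cells carried the markers of their label. All 10 β cell markers examined were well above background on both arrays, and their summed signal was 1048162 on the FTO-labelled array and 1055577 on the control-labelled array. Ins1, Ins2 and Iapp make up most of that sum. The other 7 markers were all brighter on the FTO-labelled array before normalization, and 4 of them lay above 0 after it, the highest being the glucose transporter gene Slc2a2 at 0.45. The glucagon probe (Gcg) was also bright, at 257411 and 243559, as was the duct marker Spp1, at 61191 and 56860, whereas no acinar marker exceeded 84.7 on either array. Their part in the results was not tested. The Fto probe read 7301 on the FTO-labelled array and 5179 on the control-labelled array, a log2 difference of 0.06 after normalization with a spot error of 0.20. The insert was the coding sequence and the position of the probe within the transcript is not given in the sources used here, so the probe may not read the transgene. By Western blot, the study reported raised FTO in MIN6 cells given the FTO lentivirus. That blot does not show which array holds which RNA, so every direction below rests on the labels of the arrays.

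None of the 10 genes differed by 2-fold between the arrays, and each was at the bright end of both. Over all named genes tested, 497 of 18513 (2.68%) lay past 2-fold, of which 201 (1.09%) were brighter on the FTO-labelled array and 296 (1.6%) dimmer. Over all 33844 tested probes the share was 3.48%, with 1.29% brighter and 2.18% dimmer. Among the 292 probes at least as bright as the dimmest of the 10 genes, 0 did (0.0%), so the absence of a 2-fold difference sets the 10 genes apart from nothing of their brightness. After quantile normalization the log2 differences (FTO minus control) lay between -0.24 and 0.04, 8 of them below 0. Their median was -0.13, against 0.01 over all tested genes, of which 48.3% lay below 0. In RNA from all cells of a sample, fewer cells that express a gene and less of its RNA per cell cannot be told apart.

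**Figure D1:**
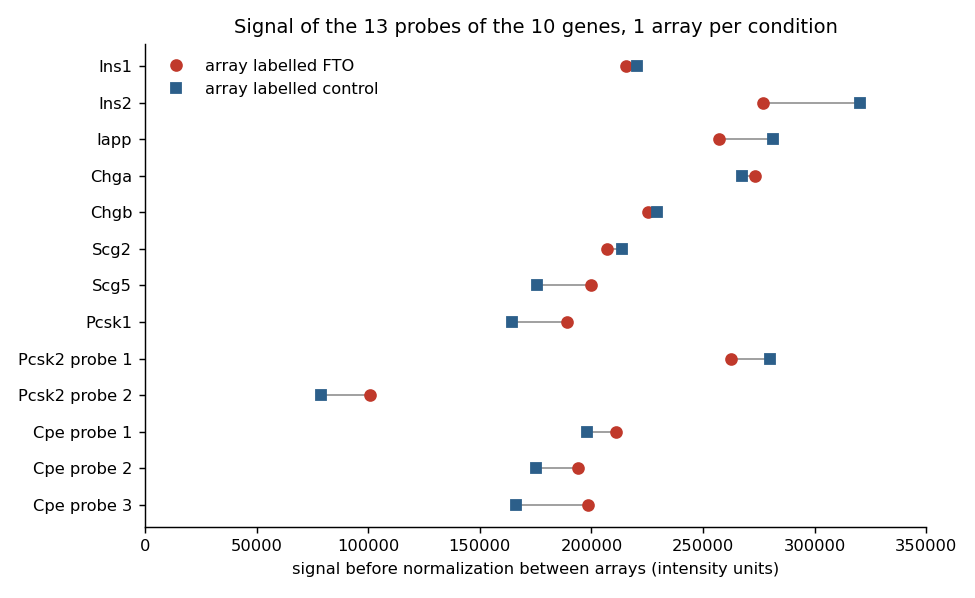
Signal of each probe before normalization between arrays, in intensity units from 0, with circles for the FTO-labelled array and squares for the control-labelled array. The hormone probes and the brighter Pcsk2 probe were brighter on the control-labelled array (Ins2 at 320363 against 276722), and the probes of Scg5, Pcsk1 and Cpe were brighter on the FTO-labelled array.

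The promoters of 4 of the genes are shown as examples of a hormone pair (Ins1 and Iapp), a granin (Chga) and a convertase (Pcsk1), and were chosen with their values known. They are the 250 bases before the start of the gene in RefSeq's annotation of GRCm38.p6, 5′ to 3′, and 8 of the 10 genes had an entry. Capitals mark TAAT (or ATTA on the other strand), the core that homeodomain factors such as PDX1 bind, and TGACG (or CGTCA), the core of the cAMP response element.
Ins1 promoter (chr19:52264047-52264296, + strand): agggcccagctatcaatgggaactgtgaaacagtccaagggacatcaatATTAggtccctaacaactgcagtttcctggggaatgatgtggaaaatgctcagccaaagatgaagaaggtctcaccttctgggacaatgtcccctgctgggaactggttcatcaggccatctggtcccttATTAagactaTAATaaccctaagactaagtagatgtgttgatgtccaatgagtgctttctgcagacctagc
Iapp promoter (chr6:142298175-142298424, + strand): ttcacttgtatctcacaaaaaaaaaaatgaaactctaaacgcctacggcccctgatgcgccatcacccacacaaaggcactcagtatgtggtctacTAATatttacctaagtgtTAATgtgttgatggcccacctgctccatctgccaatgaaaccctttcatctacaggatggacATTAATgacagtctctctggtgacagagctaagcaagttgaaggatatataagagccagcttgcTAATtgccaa
Chga promoter (chr12:102554691-102554940, + strand): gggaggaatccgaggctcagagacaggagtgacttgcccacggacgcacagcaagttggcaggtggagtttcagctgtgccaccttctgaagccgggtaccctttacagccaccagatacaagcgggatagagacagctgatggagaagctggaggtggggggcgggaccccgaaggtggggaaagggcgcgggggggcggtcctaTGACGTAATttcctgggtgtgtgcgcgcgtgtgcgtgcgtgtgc
Pcsk1 promoter (chr13:75089607-75089856, + strand): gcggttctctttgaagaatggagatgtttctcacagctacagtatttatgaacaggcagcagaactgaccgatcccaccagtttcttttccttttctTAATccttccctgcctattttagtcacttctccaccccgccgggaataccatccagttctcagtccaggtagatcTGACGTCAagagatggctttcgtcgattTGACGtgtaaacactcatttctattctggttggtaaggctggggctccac
Ins1 held 3 and Iapp 5 copies of TAAT, Chga, Scg5 and Pcsk1 held 1 each, and Chgb, Scg2 and Pcsk2 held 0. At least 1 copy was found in 5 of the 8 windows and in 54.9% of all windows of this length. Neither Ins1 nor Iapp held TGACG. The other 6 genes, Chga, Chgb, Scg2, Scg5, Pcsk1 and Pcsk2, all held it, against 17.8% of all windows. The palindrome TGACGTCA, which counts as a match on each strand, was found in Chgb, Scg2 and Pcsk1 and in 1.55% of all windows. The E box CANNTG was found in 7 of the 8 windows and in 66.2% of all windows. These matches describe the sequence before the annotated start and do not show binding. The annotated starts were not checked against where transcription begins, so a window may miss the bases next to that point. Of the genes with a TGACG match, Scg2 and the brighter Pcsk2 probe had log2 differences of -0.16 and Pcsk1 of 0.04 after quantile normalization. Each was smaller than its spot error of 0.20, and a relation of the matches to the differences was not tested.

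The hormone genes had lower signals on the FTO-labelled array. Ins2 (NM_001185084), the mouse gene that corresponds to human insulin, had the largest difference of the 10 genes. Its signal was 276722 on the FTO-labelled array and 320363 on the control-labelled array, which placed its probe 34th and 4th among all probes. The log2 difference was -0.24, a 1.18-fold lower signal, with a spot error of 0.20, which combines the scanner software's error of each spot. Ins1 (NM_008386), the second mouse insulin gene, read 215620 and 220341, with ranks of 158 and 100 and a log2 difference of -0.14. Ins1 and Ins2 are closely similar in coding sequence, and since the spot tables hold no probe sequences, transcripts of one may also bind the probe of the other. Iapp (NM_010491) had signals of 257060 and 281355, ranks of 58 and 22 and a log2 difference of -0.19, 1.14-fold lower. The spot error was 0.20 for each of the 13 probes of the 10 genes, so it is not a spread measured gene by gene. Among the hormone genes only Ins2 had a difference larger than this error. By quantitative PCR of MIN6 cells given the FTO or the empty vector, the study reported that raised FTO left insulin mRNA unaffected. With 1 array per condition, whether the lower array signals reflect less insulin mRNA was not tested.

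The 3 granins lay between -0.16 and -0.01. Chga (NM_007693), the precursor of vasostatin and pancreastatin, had signals of 273283 on the FTO-labelled array and 267310 on the control-labelled array. Its ranks were 37 and 36 and its log2 difference was -0.01. Scg2 (NM_009129), the precursor of secretoneurin, had signals of 206997 and 213899, ranks of 194 and 115 and a log2 difference of -0.16, 1.12-fold lower. Chgb (NM_007694) had a mean signal of 225170 and 229448, ranks of 121 and 84 and a log2 difference of -0.11. The differences of Chga, Scg2 and Chgb were each smaller than the spot error of 0.20.

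The Chgb probe was the only one of the 13 printed more than once, with 10 spots on each array. On the FTO-labelled array the spots ranged from 200336 to 280302 with a median of 220134, and on the control-labelled array from 212804 to 274990 with a median of 227404. The ranges overlap almost wholly. The SD between spots was 0.14 and 0.11 on the log2 scale, and the spot at row 57 and column 5 was the brightest on both arrays. Taken position by position before normalization, 5 spots were lower and 5 higher on the FTO-labelled array, with a mean log2 difference of -0.03 (SD 0.07, n = 10 spots, which are not biological replicates). Over 19 probes of this kind with a mean log2 signal above 15, the median SD between positions of such a difference was 0.056, with outlier spots left out. The 1 spot marked as an outlier by the scanner software, with signals of 216144 and 242632, was left out of the mean on the FTO-labelled array. Without it the mean difference by position was -0.02 (SD 0.055), with 4 spots lower and 5 higher. Between rows 229 and 456 and columns 1 and 34, dimmer repeated spots of the FTO-labelled array lost signal, with 29.0% of them over 0.5 (log2) dimmer than their probe's median, against 1.86% elsewhere. On the control-labelled array 2 other blocks of spots, counted in the same way, also passed the limit of 15% that defines this area, and they were kept. The 4 Chgb spots inside this area had a mean log2 difference of -0.02 and the 6 outside it of -0.04, or of -0.01 without the outlier spot.

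**Figure D2:**
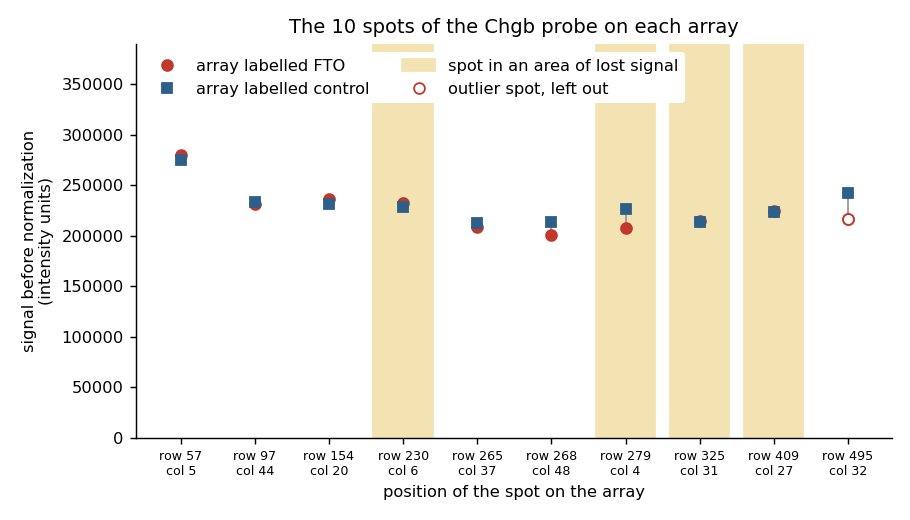
Signal of the 10 spots of the Chgb probe by position, before normalization, on the FTO-labelled array (circles, open for the outlier spot) and the control-labelled array (squares), with the area of lost signal shaded. Spots of the same position lie close together, and the brightest position reached 280302 and 274990.

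The genes of prohormone processing ranged from -0.16 for Pcsk2, lower than Ins1, to 0.04 for Pcsk1, with 2 below and 2 above 0. Scg5 (NM_009162), which encodes the PC2 chaperone 7B2, had signals of 199722 on the FTO-labelled array and 175424 on the control-labelled array, ranks of 232 and 244 and a log2 difference of 0.02. Pcsk1 (NM_013628) had signals of 188940 and 164466, ranks of 279 and 306 and a log2 difference of 0.04. Both were brighter on the FTO-labelled array before normalization and nearly equal after it.

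The genes with several probes show how far probes of the same transcript can differ. The brighter Pcsk2 (NM_008792) probe read 262725 and 279990, with a log2 difference of -0.16, while its dimmer probe, at 101040 and 78894, had 0.03. Before normalization these differences were -0.09 and 0.36, so the sign for Pcsk2 depended on the probe. The 3 probes of Cpe (NM_013494) had signals of 211149 and 197860, of 193903 and 174978, and of 198344 and 166260, with log2 differences of -0.03, -0.02 and 0.09. The brightest of them and the Scg2 probe lie in the area of lost signal. The sign of neither Pcsk2 nor Cpe was thus shared by all probes.

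The signals of both arrays lay close together at the bright end, where the 10 genes lie. No spot was saturated, and the brightest spot, at 351789, was far below the scanner limit of 778190. The 100 brightest probes spanned 1.49-fold on the FTO-labelled array and 1.53-fold on the control-labelled array, so small differences in signal moved a probe by many ranks. Quantile normalization assigns values by rank, so that a probe of the same rank on both arrays receives a difference of 0. Ins2 moved from rank 4 to 34 with a difference of -0.24. Within the 200 brightest probes there were 8 of the 10 genes on each array, and within the 50 brightest there were 4 on the control-labelled array and 2 on the FTO-labelled array. In the list of the 5 brightest named genes of the control-labelled array, Ins2 stood in the 4th place, after the ribosomal protein gene Rpl10, Gapdh and Gm5523 and before Rpl41. The 5 brightest on the FTO-labelled array were Gapdh, Rpl10, Gm5523, Rpl41 and Rplp2.

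Before normalization the FTO-labelled array was brighter, but less so for bright probes. The median log2 difference was 0.45 over 1981 probes with a mean log2 signal between 14 and 15, 0.32 between 16 and 17, 0.18 between 17 and 17.5, 0.11 between 17.5 and 18, and 0.05 over 41 probes above 18. Without normalization Ins2, Iapp, Pcsk2 and Chga, all above 18, had log2 differences of -0.21, -0.13, -0.09 and 0.03. The central 95% range of the other probes above 18 was -0.12 to 0.18, so that Ins2 and Iapp lay below it and Pcsk2 and Chga within it. Between 17.5 and 18 Ins1 had -0.03, within the range of -0.05 to 0.34 of the other probes there, and Pcsk1, between 17 and 17.5, had 0.20. The part of probe brightness in the differences among the 10 genes was not tested.

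**Figure D3:**
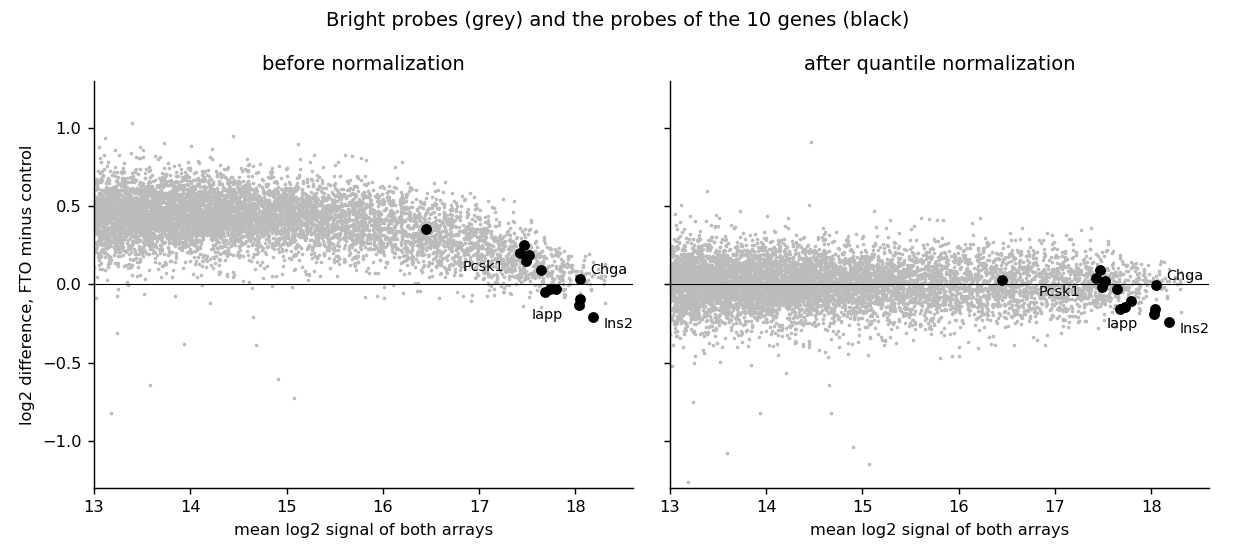
Log2 difference (FTO minus control) against the mean log2 signal for tested probes above 13, before normalization (left) and after quantile normalization (right), with the 13 probes of the 10 genes in black. The cloud bends towards 0 at the bright end before normalization, and Ins2, at -0.21 before and -0.24 after it, lies at the lower edge in both panels.

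Set beside other probes of the same brightness, Ins2 and Iapp were at the lower end. There were 280 other probes at least as bright as Pcsk1, the dimmest of the 10 genes by its brightest probe. They were counted by probe and held 123 named genes, whereas each of the 10 genes entered once. Their median log2 difference after quantile normalization was -0.003, with a central 95% range of -0.18 to 0.19. Of these 280 probes 2 had a difference as low as that of Ins2, 5 as low as Iapp, 9 as low as Scg2, 9 as low as Pcsk2, 12 as low as Ins1 and 28 as low as Chgb. Chga, Scg5, Pcsk1 and Cpe lay in the middle, with 138, 170, 192 and 97 probes at or below them. The median of the 10 genes was 0.12 below the median of the other probes, and 8 of the 10 lay below 0 against 142 of the 280.

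How low the signals appear depended on the normalization, and so did part of the order of the genes. With each array scaled by its 75th percentile all 10 genes lay below 0, from -0.64 (Ins2) to -0.23 (Pcsk1), but so did all 280 other bright probes, with a median of -0.32. With cyclic loess all 10 genes lay below 0 as well, from -0.51 to -0.12, together with 271 of the 280 other probes. Without normalization 6 genes lay below 0 and 4 above, while the other bright probes had a median of 0.10 and all tested genes one of 0.37, so that all 10 genes lay below the median gene. Normexp with an offset of 50 before quantile normalization gave -0.32 for Ins2, -0.28 for Iapp, -0.05 for Ins1 and 0.05 for Cpe, the highest of the 10. Pcsk1, the highest under the other 4, was then at -0.08, below Ins1, and Pcsk2 was at -0.21. Under these 5 ways of processing Ins2 was the lowest of the 10 genes each time. Scaling by the 75th percentile shifts every probe by the same amount. It therefore must give the same order of genes, and the same gap to the other bright probes, as no normalization. Ins1, Ins2, Iapp, Chgb, Scg2 and the brighter probe of Pcsk2 stayed below 0, and Chga, Scg5, Pcsk1 and Cpe changed sign. The median of the 10 genes lay between 0.08 and 0.13 below that of the other bright probes. The authors' own processed values gave -0.24 for Ins2, -0.14 for Ins1 and -0.19 for Iapp.

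**Figure D4:**
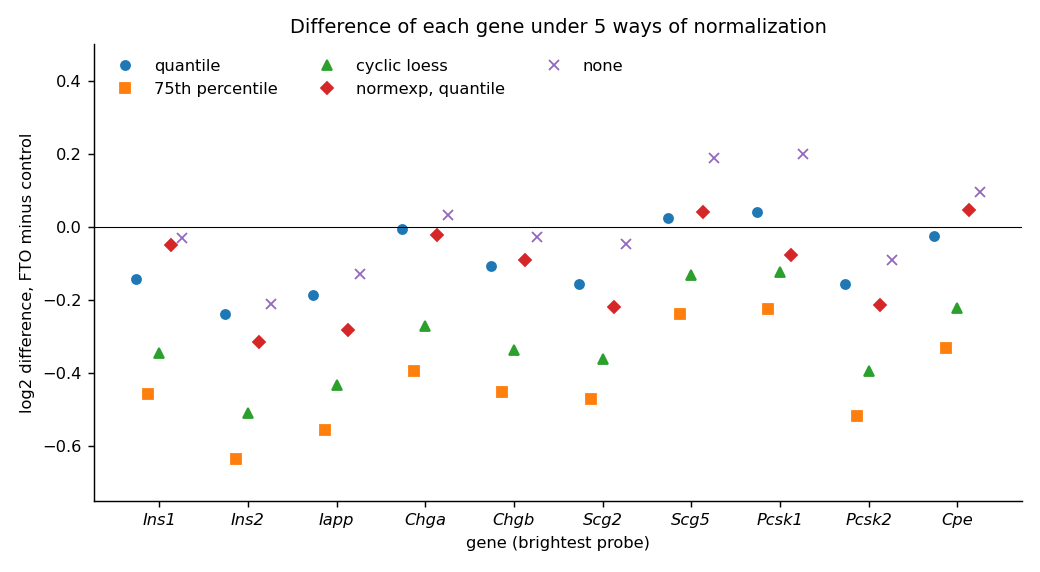
Log2 difference (FTO minus control) of the brightest probe of each gene under 5 ways of normalization, marked by symbol. The 75th percentile and cyclic loess place all 10 genes below 0, and Ins2 is the lowest gene under each, from -0.64 to -0.21.

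Other genes of the pathway were described by 4 lists. Further processing enzymes and their inhibitors had 24 tested genes of 26 with a probe, none of which differed by 2-fold. Their median log2 difference was 0.02, with 13 above and 11 below 0. The lowest were Cpb1, a pancreatic carboxypeptidase, at -0.88 with dim signals of 31.5 and 53.8, Pam, the enzyme that amidates peptide hormones, at -0.64 with signals of 817 and 980, and Pcsk4 at -0.21. The highest were Tpst1, a tyrosylprotein sulfotransferase, at 0.39, Dpp4 at 0.18 and the convertase Furin at 0.17. Pcsk4 and Cpd, a carboxypeptidase at -0.21, exceeded their spot error of 0.20 only barely. The share of all tested genes past their spot error was not counted.

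Granule cargo and membrane proteins had 37 tested genes, none with a 2-fold difference, and a median of 0.05. Sytl4, which encodes granuphilin and docks granules at the membrane, was the highest at 0.33 with signals of 35325 and 20681. Slc18a1, a vesicular monoamine transporter, and Resp18, a granule protein, both had 0.26, and for Resp18 the 75th percentile scaling gave -0.03. Cadps2, a priming factor, had -0.76 for its brightest probe, with signals of 58.2 and 88.0, but 0.38 and -0.06 for a pair of other probes. Pi4k2a had -0.25 at a probe in the area of lost signal and 0.08 at a second probe outside it. Adcyap1, which encodes the peptide PACAP, had -0.18 with signals of 99.2 and 98.9.

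V-ATPase subunits, which acidify the granule, had 24 tested genes with a median of -0.01. Those well above background on both arrays lay between -0.24 (Atp6v1g3) and 0.18 (Atp6v0a4). After Atp6v1g3 the lowest were Atp6v0c at -0.13 and Atp6v1e1 at -0.09, and before Atp6v0a4 the highest were Atp6ap2 and Atp6v1c2, both at 0.10. The 1 gene counted past 2-fold, Atp6v0d2, read 3.93 and 10.7 and failed the background criterion on the FTO-labelled array, so its difference is not given and the count rests on a signal at background.

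Regulators of the insulin gene and its mRNA had 21 tested genes, a median of 0.00 and no 2-fold difference. The largest value was that of Neurod1, an E box factor of the insulin promoter, with signals of 17134 on the FTO-labelled array and 9845 on the control-labelled array and a log2 difference of 0.36. A second Neurod1 probe, at 13955 and 9978, had 0.05. Crem, a factor that binds cAMP response elements, had 0.21. The 2 other Crem probes had 0.24 and 0.13. The lowest were Glis3 at -0.29, with 0.09 at a second probe, Tcf3 at -0.24 and -0.22, and Pax6 at -0.23 and -0.001. Pdx1 had -0.03, Mafa -0.16 and Nkx6-1 -0.12, each within the spot error of 0.20.

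**Figure D5:**
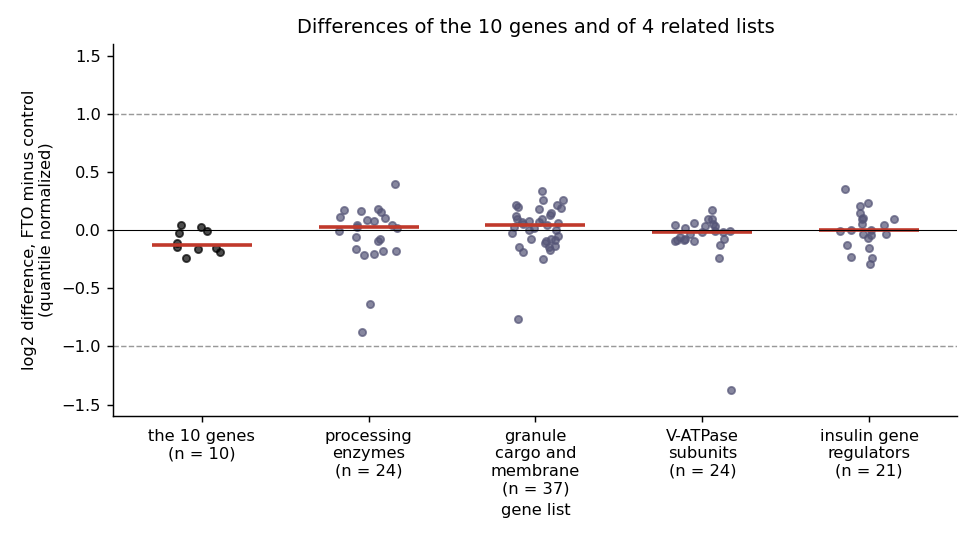
Log2 difference (FTO minus control, quantile normalized) of the 10 genes and of the tested genes of 4 related lists, with the median of each as a red bar and 2-fold limits dashed. The medians are -0.13 for the 10 genes and 0.02, 0.05, -0.01 and 0.00 for the lists, and the point below the lower limit is Atp6v0d2.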

How the data were processed

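Total RNA of MIN6 cells taken 48 h after transduction was labeled with Cy3 and hybridized to 1 array per condition. The number of arrays limits the precision. The deposited spot tables hold the intensity of each spot from Agilent Feature Extraction 11.0.1.1, with background and surface trend removed and no normalization between arrays. They also hold 0 or 1 flags. The deposited processed table holds log2 values of 33870 probes, quantile normalized by the authors. Here outlier spots (148 and 141) were left out, spots of a probe were averaged as log2, and limma 3.58.1 (R 4.3.3) quantile normalized the 2 arrays. A probe was tested where at least 50% of its spots were well above background on 1 array. A gene took its brightest probe and was counted past an absolute log2 difference of 1. Names came from accessions in the RefSeq annotation of GRCm38.p6 (27224 probes). Median signals of spot and background, also intensity values deposited by the authors, served for normexp. The pipeline was tested on simulated data. Python 3.11.15, pandas 2.3.3, numpy 2.4.6 and matplotlib 3.10.9 were also used.

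The 10 genes and the lists were chosen with earlier results of these data known. The text names every probe of the 10 genes, Fto, the 5 brightest named genes of each array and, from each list, genes past 2-fold and the 3 lowest and 3 highest among genes whose probe passed the background criterion on each array. For the insulin regulators 1 of these genes is not reported here. Other genes were named after their values were seen. The area of lost signal was defined on repeated probes, as blocks of the FTO-labelled array where at least 15% of spots lay over 0.5 below their probe's median, after calls had been examined.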

Additional observations from a re-analysis of the deposited data

How the results depend on the processing

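The count of the 10 genes past 2-fold was 0 under every setting run. Their median of -0.13 became -0.45 on scaling by the 75th percentile, -0.34 under cyclic loess and -0.029 without normalization, and lay between -0.13 and -0.08 otherwise. The 75th percentile moved the list medians to -0.072 (processing), -0.019 (granule) and -0.077 (V-ATPase), cyclic loess moved that of processing to -0.033, and no normalization gave 0.35 (processing), 0.41 (granule), 0.35 (V-ATPase) and 0.41 (insulin regulators). With the 75th percentile 1 processing gene and 1 granule gene passed 2-fold, Cpb1 at -1.20 and Cadps2 at -1.02. The V-ATPase count of 1 became 0 with normexp, when each array had to pass the background criterion, and with the area of lost signal left out, an alternative chosen after seeing the data. The 1177 probes past 2-fold over the whole array became 132 with normexp, 491 when each array had to pass, 2176 with no filter on background and 668 with the area of lost signal left out. These causes were not tested beyond fewer or more probes entering under the filters. Leaving aside the background filters, which cannot move a value of the 10 genes, and the authors' table, which repeats the quantile normalization, 53 of 69 values of single genes moved by less than the spot error and 16 by more, all 16 with the 75th percentile or cyclic loess. Scaling by spike-in probes was not run, since 3 of 10 were well above background on both arrays. No paired analysis was possible because there is 1 array per condition, and leaving out a replicate was not possible for the same reason.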
